A study of Homo sapiens with 14 samples.

Results

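Phospholipase C genes were followed in MDA-MB-231 cells, a mesenchymal human breast cancer line without the oestrogen receptor, after knockdown of YAP and TAZ, after knockdown of BRD genes and after treatment with JQ1. The genes were chosen by symbol: PLCG2, PLCG1, PLCB3, PLCB4, PLCD1, PLCD3 and PLCE1, and all 7 were found among the 13734 rows of the deposited expression table. PLCG2 was singled out because its row was the highest of the whole table in every library with YAP/TAZ siRNA, so its values in those libraries chose it and are given here as a description with no test. The table held 14 phospholipase C genes in all, and the other 7 are given after these.

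YAP1 (YAP) and WWTR1 (TAZ) are co-activators that bring the output of the Hippo pathway to DNA, and the BRD genes encode BET proteins, which bind acetylated histones. The groups, of 2 libraries each, were YAP/TAZ siRNA mix 1 and mix 2 (48 h before harvest), BRD siRNA mix A and mix B (72 h), control siRNA, JQ1 (1 µM for 24 h), a compound that competes with acetylated histones for BET proteins, and DMSO, its solvent. All cells were of the same line and carried no other alteration that the labels name, and no harvest time is given for control siRNA or DMSO. The 48 h and 72 h knockdowns thus share 1 pair of control siRNA libraries. Values are scaled RPM, reads relative to an effective library size, and fold changes were taken after adding a pseudocount of 1, log2(value + 1), which damps them for scarce transcripts.

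Phospholipase C enzymes cut the membrane lipid phosphatidylinositol 4,5-bisphosphate (PIP2) into inositol trisphosphate (IP3), which opens calcium channels of the endoplasmic reticulum, and diacylglycerol, which recruits protein kinase C. The isoforms differ in what switches them on: tyrosine kinases act on the gamma forms, the G protein Gq on the beta forms, calcium on the delta forms and Ras-type GTPases on the epsilon form. PLCG1 is made in most tissues, whereas PLCG2 is best known from B cells and other leukocytes, where it acts below antigen and Fc receptors.

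The libraries held 15741695 to 37311326 reads in genes, and depth did not limit the members other than PLCB4, which rested on 12 to 93 reads per library. YAP1 averaged 21.6 ± 2.35 with YAP/TAZ siRNA (SD, n = 4) and 182 ± 11.4 with control siRNA (n = 2), and WWTR1 averaged 14.5 ± 2.17 and 131 ± 6.29 in the same groups. BRD3 averaged 9.76 ± 0.742 with BRD siRNA (n = 4) and 31.1 ± 1.96 with control siRNA (n = 2), while BRD2 averaged 175 ± 21.6 and 252 ± 0.52. All 5 markers written for this line had reads in every library, VIM at 2894 to 6615, MSN at 576 to 1077, AXL at 353 to 2451, CAV1 at 280.1 to 818 and CD44 at 73.6 to 359, and of 4 markers written as absent or low only EPCAM had a row, at 4.05 to 18.6. Whether the replicates came from separate cultures is not stated, so the spread behind each p-value may be technical. In bulk RNA, a change in the number of cells of a kind and a change in RNA per cell cannot be told apart.

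The PLCG2 row had the highest values of the 7 in every library, and those values were higher with every perturbation than in the controls. Whether all of its reads come from PLCG2 mRNA was not tested, as set out with its last exon. With YAP/TAZ siRNA its row stood at 15321 and 13927 for mix 1 and at 17214 and 16304 for mix 2. With BRD siRNA it stood at 13270 and 12801 for mix A and at 14264 and 14394 for mix B, against 9479 and 8649 with control siRNA. It stood at 12390 and 12956 with JQ1, against 8708 and 8027 in DMSO. Every library of a perturbed group lay above every control siRNA and DMSO library. In the order of group means, mix 2 led, followed by mix 1, mix B, mix A, JQ1, control siRNA and DMSO. Among neighbours in that order, mix 1 overlapped mix B, mix A overlapped JQ1, and control siRNA overlapped DMSO.

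PLCG2 averaged 15691 ± 1408 with YAP/TAZ siRNA (SD, n = 4) and 9064 ± 587 with control siRNA (n = 2), a log2 difference of 0.79 that is given without a test. With BRD siRNA it averaged 13682 ± 773 (n = 4), and the rise over control siRNA was 0.59 on the log2 scale (SE 0.0914, limma adjusted p = 5.9e-06). With JQ1 it averaged 12673 ± 400 and in DMSO 8368 ± 481 (n = 2 each), a rise of 0.60 (SE 0.106, limma adjusted p = 3.19e-05). The rises with JQ1 and with BRD siRNA differed by 0.01, with a 95% interval of -0.29 to 0.30 (limma adjusted p = 0.975). The 2 BRD mixes differed by -0.14 (mix A minus mix B, limma adjusted p = 0.3), and control siRNA minus DMSO gave 0.12 (adjusted p = 0.372). Leaving out 1 library at a time, both rises passed in every fit, at 0.53 to 0.66 for BRD siRNA (6 fits) and 0.54 to 0.66 for JQ1 (4 fits). Under quantile normalization, which sets a value by its rank, both calls were lost. The differences were 0.10 for BRD siRNA (limma adjusted p = 0.198) and 0.11 for JQ1 (limma adjusted p = 0.227). The untested YAP/TAZ difference was 0.65 there, but PLCG2 was chosen for its first rank in those libraries. The choice thus fixed the YAP/TAZ side of that value, which is not comparable with the BRD siRNA and JQ1 values.

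**Figure D1:**
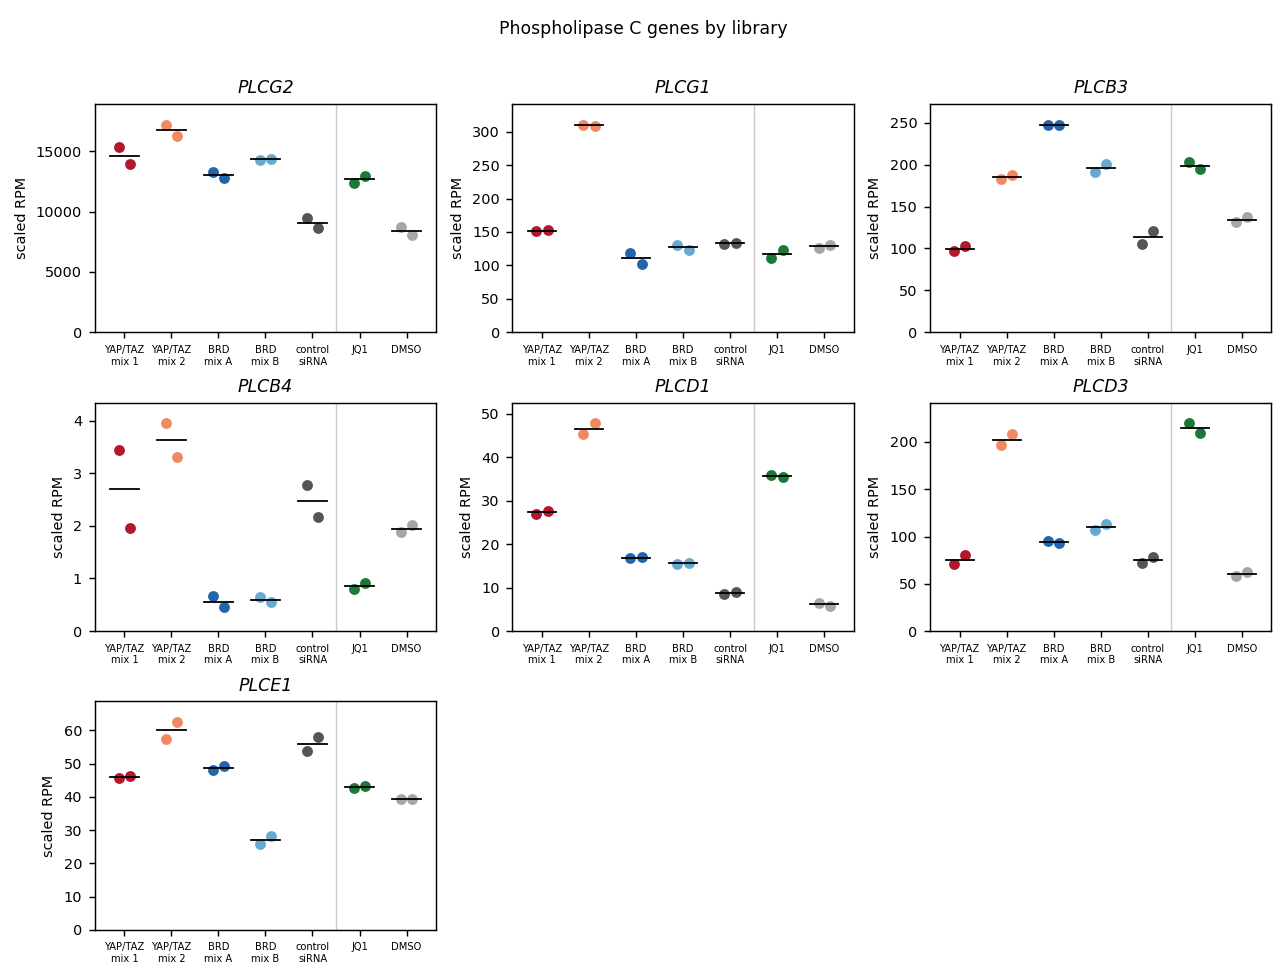
Scaled RPM of the 7 genes in every library (points, 2 per group) with the group mean (bar); each panel has its own axis from 0, and the vertical line parts the siRNA groups from JQ1 and DMSO. PLCG2 lay at 8027 to 17214 and was above both controls in every perturbed library, while the other genes moved in different directions.

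Reads of the PLCG2 row made up 1.64% and 1.49% of all reads with YAP/TAZ siRNA mix 1 and 1.91% and 1.77% with mix 2. They made up 1.27% and 1.19% with BRD mix A, 1.40% and 1.41% with mix B, and 0.988% and 0.913% with control siRNA. With JQ1 the shares were 1.13% and 1.19%, against 0.825% and 0.779% in DMSO. The Wilson 95% interval of the lowest share ran from 0.776% to 0.782%, so counting error was far below the differences between groups, and it covers counting error only.

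A level of this size was checked against the gene's neighbours in the annotation, a check chosen after the values were seen. GENCODE 29 (build GRCh38) places PLCG2 at chr16:81739097-81962693 on the plus strand. Its last exon holds 4738 bases, of which the first 40 are coding, and the rest is 3′ untranslated region. Inside that untranslated part, on the same strand, lies RN7SKP176 (chr16:81961926-81962243), a 318-base pseudogene of 7SK. 7SK is an abundant small nuclear RNA made by RNA polymerase III that keeps the elongation kinase P-TEFb inactive, and BET proteins act with P-TEFb on transcription. The gene RN7SK (chr6:52995621-52995948, plus strand) is 328 bases long. Its bases 1 to 239 matched the pseudogene without gaps at 234 of 239 positions (97.9%), with a longest identical run of 78 bases. The 30 bases of RN7SK around the closest pair of differing positions are shown as an example of how near the copies are, with the 2 bases at which the PLCG2 exon differs in capitals (bases 72 to 101 of RN7SK, chr6:52995692-52995721, GRCh38, plus strand).
RN7SK: ggctaggCgggtgtccccttcctCcctcac

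**Figure D2:**
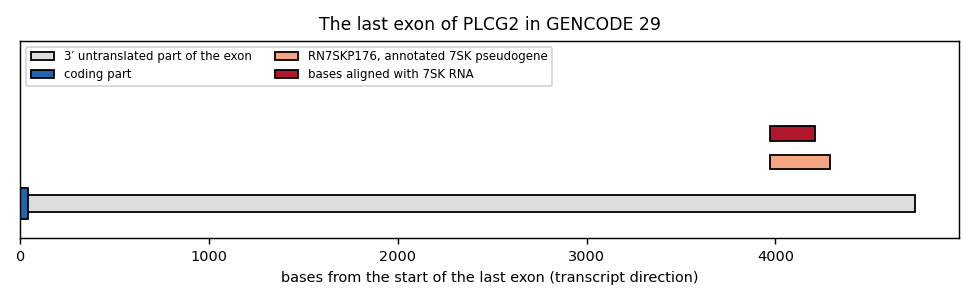
The last exon of PLCG2 in transcript direction, in bases from its start: the coding part (40 bases), the untranslated part, the 7SK pseudogene RN7SKP176 (bases 3971 to 4288 of the exon) and the 239 bases that align with 7SK RNA (bases 3972 to 4210). The 7SK-like stretch lies wholly in the untranslated part, 450 bases before the end of the gene.

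Besides PLCG2, 4 rows of the table had all or part of a 7SK pseudogene on the same strand in their exons. The 5 rows were first ranked by the number of bases identical to 7SK. Like the other measures here, it covers the whole pseudogene and not only its part inside exons. By that measure PLCG2 came behind ZNF277 and KCTD19. ZNF277 had 297 identical bases of 326 aligned, KCTD19 296 of 325 and PLCG2 234 of 239. PRTFDC1 had 204 of 235 and CLK4 134 of 169. The pseudogene bases inside exons were 330 for ZNF277, 318 for PLCG2, 164 for PRTFDC1, 161 for CLK4 and 112 for KCTD19. The place of KCTD19 above PLCG2 thus does not hold for its exons. The longest identical run was added as a measure after that ranking and after the levels had been seen, and by it PLCG2 came first, with 78 bases against 37 in KCTD19, 35 in ZNF277, 17 in PRTFDC1 and 11 in CLK4. Percent identity was 97.9% for PLCG2, 91.1% for ZNF277 and KCTD19, 86.8% for PRTFDC1 and 79.3% for CLK4. The highest values of the rows were 28.3 for ZNF277, 2.12 for KCTD19, 28.1 for PRTFDC1 and 45.1 for CLK4, far below PLCG2. With 5 rows and measures chosen in this way, the order supports no statement on the source of the PLCG2 reads. RN7SK itself was not analysed here, and the sources used here do not give how reads matching both loci were placed and counted. The part of 7SK reads in the PLCG2 row was not tested, so the row is an uncertain measure of PLCG2 mRNA. PLCG2 also shares 386 exon bases on the same strand with the long noncoding RNA AC099524.1.

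Promoters were searched for 3 motifs. RefSeq windows (GRCh38.p14) were at hand for 5 of the 7 members, PLCG2, PLCG1, PLCB3, PLCD3 and PLCE1, and not for PLCB4 and PLCD1. In the 250 bases before the start site, on both strands, the TEAD motif GGAATG, the AP-1 motif TGANTCA and the E-box CACGTG had 0 matches in all 5. Of 35116 windows of the same length, 11.9%, 6.57% and 6.34% hold the 3 motifs. Nothing on any factor is drawn from their absence.

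The rows next to PLCG2 at the top of the table were RMRP and RPPH1, RNA polymerase III transcripts that form the RNA parts of RNase MRP and RNase P, and EEF1A1, a translation elongation factor. They are named here after their values were seen. RMRP read 11564 and 10957 with YAP/TAZ mix 1 and 13251 and 14191 with mix 2, against 10945 and 10058 with control siRNA. RPPH1 read 13745 and 10849 with JQ1, against 9211 and 7897 in DMSO. The RMRP groups did not overlap, though 10957 with mix 1 lay close to 10945 with control siRNA. The RPPH1 groups did not overlap. RMRP was 0.24 higher on the log2 scale with YAP/TAZ siRNA (SE 0.0938, limma adjusted p = 0.0225). That call rested on mix 2 (0.39, adjusted p = 0.00286), as mix 1 gave 0.10 (adjusted p = 0.405). Against DMSO the YAP/TAZ value of RMRP was 0.06 (adjusted p = 0.573). Its values with BRD siRNA (0.18, adjusted p = 0.0854) and JQ1 (-0.07, adjusted p = 0.597) did not pass. RPPH1 rose by 0.50 with BRD siRNA (SE 0.11, limma adjusted p = 0.000338) and by 0.52 with JQ1 (SE 0.127, adjusted p = 0.00099). With YAP/TAZ siRNA it gave 0.18 (adjusted p = 0.14), and 0.43 against DMSO (adjusted p = 0.00109). EEF1A1 rose by 0.27 with BRD siRNA (limma adjusted p = 0.0152) and by 0.85 with JQ1 (adjusted p = 5.85e-07), and gave -0.16 with YAP/TAZ siRNA (adjusted p = 0.137). Against DMSO, EEF1A1 gave -0.03 with BRD siRNA (adjusted p = 0.813) and -0.45 with YAP/TAZ siRNA (adjusted p = 0.000186). PLCG2 was ranked 1 in the 4 YAP/TAZ siRNA libraries and between 2 and 4 elsewhere, where EEF1A1 led.

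**Figure D3:**
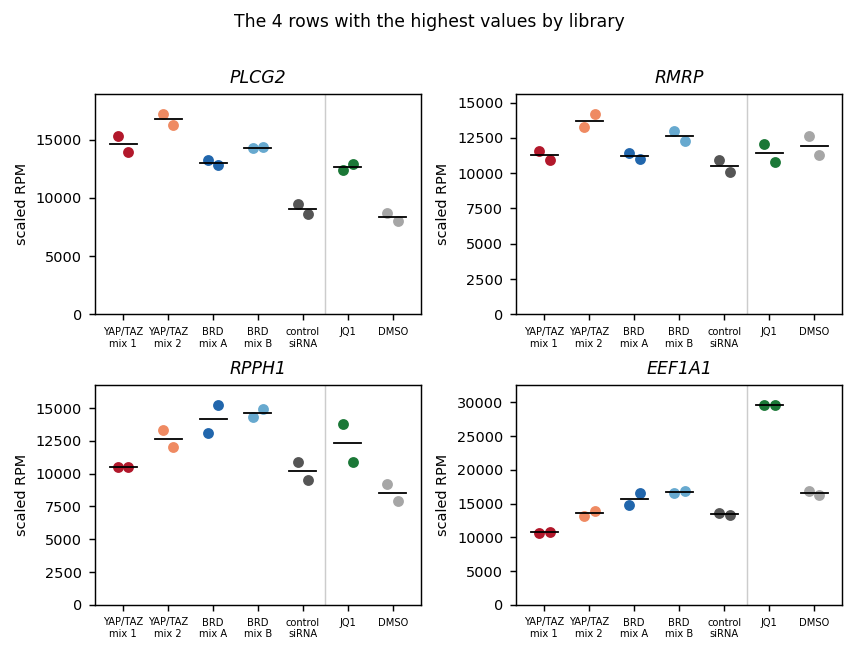
Scaled RPM of PLCG2, RMRP, RPPH1 and EEF1A1 in every library (points) with the group mean (bar), each panel from 0. PLCG2 was the highest of the 4 with YAP/TAZ siRNA (13927 to 17214), and EEF1A1 was the highest with JQ1 (29656 and 29641).

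Leukocyte markers were read beside PLCG2, since that is where the gene is best known. Of 16 markers written, 4 had rows: CD68, LYZ, CD14 and CD8A. Their summed level was 123 and 126 with YAP/TAZ mix 1, 164 and 183 with mix 2, 42.8 and 42.9 with BRD mix A and 38.2 and 38.6 with mix B, against 67.5 and 69.7 with control siRNA. It was 79.8 and 83.3 with JQ1, against 70.6 and 71.7 in DMSO. CD68, a lysosomal membrane protein, gave most of the sum at 35.4 to 150.1, LYZ ran from 1.04 to 27.3, while CD14 never passed 4.90 and CD8A never passed 3.44. The sum was thus higher than control with YAP/TAZ siRNA and lower with BRD siRNA, while PLCG2 was higher in both, and the part of such cells in PLCG2 was not tested. The other 12 had no row, so no level could be read for them.

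Per kilobase of merged exon (GENCODE 29), the PLCG2 row led the 7 in every group, at 1090 ± 73.5 with YAP/TAZ mix 1, 1249 ± 48 with mix 2, 972 ± 24.7 with BRD mix A, 1068 ± 6.84 with mix B and 676 ± 43.8 with control siRNA, 945 ± 29.8 with JQ1 and 624 ± 35.9 in DMSO (scaled RPM per kb, SD, n = 2 each). PLCB3 came second in every group, and the ratio of PLCG2 to it was between 19.5 and 54.4. PLCB4 came last, at 0.0806 to 0.526 scaled RPM per kb. In between, PLCG1 stood above PLCD3 with YAP/TAZ siRNA, control siRNA and DMSO, and below it with BRD siRNA and JQ1. PLCD1 stood below PLCE1 in control siRNA and DMSO and above it in all perturbed groups. In none of the 42 neighbouring pairs did the libraries overlap, although the lengths come from an annotation that may not be the authors' own.

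Of the 6 members tested with YAP/TAZ siRNA, 4 rose, 0 fell and 2 did not pass (limma, adjusted p under 0.05), where 78.9% of all tested genes passed in either direction and 43.1% were higher. With BRD siRNA 4 of 7 rose and 3 fell, where 75.2% of all genes passed, 37.6% higher and 37.6% lower. With JQ1 4 of 7 rose, 1 fell and 2 did not pass, where 73.9% of all genes passed, 37.6% higher and 36.3% lower. With so many genes called, the counts of members are near the background, and the results lie in the size and direction of each gene. With single mixes against control siRNA, mix 1 had 2 of 6 members higher and 2 lower (all genes 74.3% called, 40.6% higher and 33.6% lower) and mix 2 had 5 of 6 higher (78.4%, 42.7% and 35.7%). BRD mix A had 4 of 7 higher and 3 lower (73.3%, 37.2% and 36.1%) and mix B 4 higher and 2 lower (70.8%, 35.3% and 35.5%). Against DMSO in place of control siRNA, YAP/TAZ siRNA had 5 of 6 higher (84.2%, 44.4% and 39.8%) and BRD siRNA 4 of 7 higher and 1 lower (78.8%, 39.1% and 39.7%). The median log2 fold change over all tested genes was 0.07, -0.0047 and 0.01 in the 3 comparisons, against 0.48, 0.43 and 0.56 over the members.

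**Figure D4:**
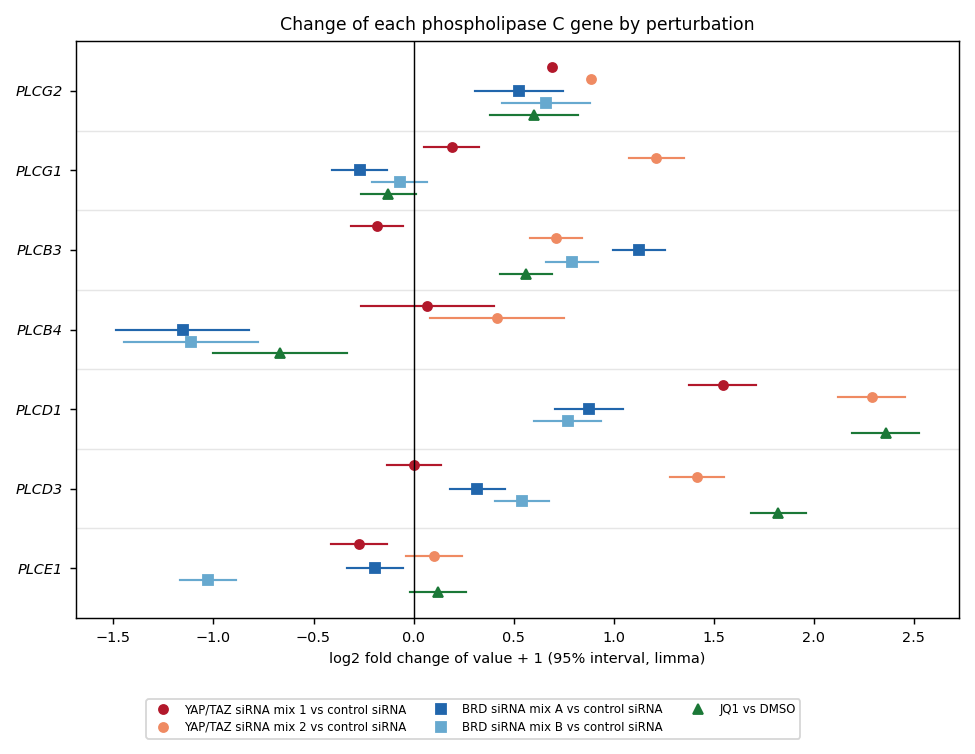
Log2 fold change of value + 1 for each gene, by siRNA mix against control siRNA and for JQ1 against DMSO, with 95% intervals from limma; the YAP/TAZ points of PLCG2 carry no interval because they chose the gene. PLCD1 and PLCD3 moved furthest up, at 2.36 and 1.82 with JQ1, and PLCB4 furthest down, at -1.15 with BRD mix A.

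PLCG1, the broadly expressed gamma form that growth factor receptors phosphorylate, was higher with YAP/TAZ siRNA and not with the BET perturbations. It read 151 and 153 with YAP/TAZ mix 1 and 311 and 308 with mix 2, against 133 and 134 with control siRNA. It read 119 and 102 with BRD mix A and 130.1 and 124 with mix B, and 112 and 124 with JQ1, against 126 and 131 in DMSO. Mix 2 stood far above all other groups, and mix 1 lay just above control siRNA without overlap. The rise with YAP/TAZ siRNA was 0.70 (SE 0.0573, limma adjusted p = 4.07e-10), made up of 0.19 with mix 1 (adjusted p = 0.0131, or 0.0663 without mix 1 replicate 2) and 1.21 with mix 2 (adjusted p = 5.34e-13). PLCG1 fell by 0.17 with BRD siRNA (SE 0.0573, limma adjusted p = 0.0115), a call that did not hold with mix B alone (-0.07, adjusted p = 0.359), against DMSO (-0.12, adjusted p = 0.0663) or without control siRNA replicate 2 (-0.16, adjusted p = 0.0542). With JQ1 the value was -0.13 (adjusted p = 0.0912). The JQ1 difference minus the YAP/TAZ difference was -0.83 (SE 0.0875, limma adjusted p = 5.73e-08). ZHX3 and 3 smaller annotated genes share exon bases with PLCG1, ZHX3 268 of them on the opposite strand.

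PLCB3, a beta form driven by Gq and by G protein beta-gamma subunits, rose most with BRD siRNA. It read 248 and 247 with BRD mix A and 191 and 201 with mix B, against 105 and 121 with control siRNA. It read 203 and 194 with JQ1, against 131 and 137 in DMSO. With YAP/TAZ mix 1 it read 96.5 and 103, and with mix 2 183 and 188. Both BRD mixes, JQ1 and mix 2 lay above all control libraries, while both mix 1 libraries lay below both control siRNA libraries. The rise was 0.96 with BRD siRNA (SE 0.0539, limma adjusted p = 1.26e-12) and 0.56 with JQ1 (SE 0.0622, adjusted p = 5.73e-08), and the JQ1 rise was smaller by 0.39 (SE 0.0823, adjusted p = 0.000333). With YAP/TAZ siRNA the value was 0.27 (SE 0.0539, limma adjusted p = 0.00014), but the mixes went opposite ways, at -0.18 with mix 1 (adjusted p = 0.0127) and 0.71 with mix 2 (adjusted p = 1.22e-09). PLCB3 was also lower in control siRNA than in DMSO, at -0.25 (limma adjusted p = 0.00216, or 0.0649 without control siRNA replicate 1), and against DMSO the YAP/TAZ value was 0.02 (adjusted p = 0.757). Without control siRNA replicate 2, the mix 1 value was -0.08 (adjusted p = 0.267), and without mix 1 replicate 1 it was -0.14 (adjusted p = 0.125).

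PLCB4, a beta form best known from retina and cerebellum, was scarce and fell with both BET perturbations. It read 0.664 and 0.449 with BRD mix A and 0.646 and 0.554 with mix B, against 2.77 and 2.17 with control siRNA. It read 0.802 and 0.913 with JQ1, against 1.88 and 2.02 in DMSO, and 3.44 and 1.96 with YAP/TAZ mix 1 and 3.95 and 3.304 with mix 2. The BRD siRNA and JQ1 libraries all lay below every other library. The change was -1.13 with BRD siRNA (SE 0.139, limma adjusted p = 2.45e-07) and -0.67 with JQ1 (SE 0.16, adjusted p = 0.000835). The group means give a ratio of 0.234 for BRD siRNA over control siRNA and of 0.44 for JQ1 over DMSO, and edgeR on the recovered reads gave -2.10 and -1.18, since the pseudocount damps so low a gene. With YAP/TAZ siRNA the value was 0.24 (limma adjusted p = 0.113), and it passed without mix 1 replicate 2 (0.39, adjusted p = 0.00868), with mix 2 alone (0.42, adjusted p = 0.0223) and against DMSO (0.47, adjusted p = 0.0036).

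PLCD1, a calcium-driven delta form whose PH domain binds PIP2, rose in all 3 comparisons. It read 27.0 and 27.7 with YAP/TAZ mix 1 and 45.3 and 47.8 with mix 2, 16.7 and 17.0 with BRD mix A and 15.4 and 15.7 with mix B, against 8.42 and 9.03 with control siRNA. It read 35.9 and 35.5 with JQ1, against 6.48 and 5.85 in DMSO. No perturbed library overlapped a control library, and only the order of the groups differed. The rise was 1.92 with YAP/TAZ siRNA (SE 0.0699, limma adjusted p = 7.44e-16), 0.82 with BRD siRNA (SE 0.0699, adjusted p = 9.53e-10) and 2.36 with JQ1 (SE 0.0807, adjusted p = 4.6e-16). These correspond to ratios of means of 4.23, 1.86 and 5.79. The JQ1 rise exceeded the BRD siRNA rise by 1.54 (SE 0.107, limma adjusted p = 1.77e-10) and the YAP/TAZ rise by 0.44 (SE 0.107, adjusted p = 0.00118). PLCD1 was 0.44 higher with control siRNA than in DMSO (limma adjusted p = 0.00011), and no alternative ended any of these 3 rises.

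PLCD3, the second delta form of the set, rose most with JQ1. It read 220 and 209 with JQ1, against 57.8 and 62.0 in DMSO. It read 70.7 and 80.3 with YAP/TAZ mix 1 and 197 and 208 with mix 2, 95.5 and 92.7 with BRD mix A and 107 and 113 with mix B, against 72.5 and 78.1 with control siRNA. JQ1 and mix 2 stood well above the rest, and mix 1 overlapped control siRNA. The rise was 1.82 with JQ1 (SE 0.0655, limma adjusted p = 9.68e-16), 0.43 with BRD siRNA (SE 0.0567, adjusted p = 7.15e-07) and 0.71 with YAP/TAZ siRNA (SE 0.0567, adjusted p = 2.96e-10). The YAP/TAZ rise came from mix 2 (1.42, limma adjusted p = 3.55e-14), as mix 1 gave 0.0024 (adjusted p = 0.977). The JQ1 rise exceeded the BRD siRNA rise by 1.39 (SE 0.0867, limma adjusted p = 3.5e-11). PLCD3 shares 124 exon bases with ACBD4 and 50 with NMT1 on the opposite strand. The libraries were made with a stranded kit, but no source used here gives the strand setting of the counting.

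PLCE1, the epsilon form that Ras-type GTPases bind, fell with BRD siRNA, and its fall was set by 1 mix more than by the other. It read 48.1 and 49.2 with BRD mix A and 25.7 and 28.1 with mix B, against 53.7 and 57.9 with control siRNA. It read 45.8 and 46.3 with YAP/TAZ mix 1 and 57.5 and 62.5 with mix 2, and 42.6 and 43.4 with JQ1, against 39.4 and 39.3 in DMSO. Mix B stood alone at the bottom, below every other library. The change with BRD siRNA was -0.61 (SE 0.058, limma adjusted p = 5.71e-09), made up of -0.19 with mix A (adjusted p = 0.0134) and -1.03 with mix B (adjusted p = 2.01e-11). PLCE1 was also 0.49 higher in control siRNA than in DMSO (limma adjusted p = 3.49e-06), and against DMSO the BRD value was -0.12 (adjusted p = 0.0699). The mix A call did not hold without control siRNA replicate 2 (-0.14, adjusted p = 0.117) or without mix A replicate 1 (-0.18, adjusted p = 0.0544). With YAP/TAZ siRNA the value was -0.09 (limma adjusted p = 0.183), with mix 1 at -0.27 (adjusted p = 0.00108) and mix 2 at 0.10 (adjusted p = 0.171), and with JQ1 0.12 (adjusted p = 0.103).

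The 2 siRNA mixes against YAP and TAZ differed in 5 of the 6 members tested, all lower with mix 1 than with mix 2, where 65.7% of all genes differed, 30.9% higher and 34.8% lower with mix 1. The difference ran from -0.37 for PLCE1 to -1.41 for PLCD3. PLCG2 was lower with mix 1 as well, by -0.20 and without a test, and PLCB4 gave -0.35 (limma adjusted p = 0.0613). YAP1 and WWTR1 themselves were 0.22 and 0.33 higher with mix 1 (limma adjusted p = 0.00748 and 0.000162). The YAP/TAZ readouts CTGF, CYR61 and ANKRD1, which encode secreted matrix proteins and a muscle ankyrin repeat protein, went the other way, lower with mix 1 by -1.87, -1.63 and -1.28. Between BRD mix A and mix B, 2 of 7 members were higher with mix A and 2 were lower, where 50% of all genes differed, 25.7% higher and 24.3% lower. PLCB3 was 0.33 higher with mix A (limma adjusted p = 0.000136) and PLCE1 0.83 higher (adjusted p = 1.92e-09), while PLCG1 was -0.20 (adjusted p = 0.0162) and PLCD3 -0.22 (adjusted p = 0.00752). The PLCG1 call did not hold without mix A replicate 2 (-0.09, limma adjusted p = 0.297) or mix B replicate 1 (-0.16, adjusted p = 0.132), nor the PLCD3 call without mix B replicate 2 (-0.19, adjusted p = 0.0814).

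JQ1 and BRD siRNA, both aimed at BET proteins, have separate controls, so their differences were set against each other in 1 contrast. The JQ1 difference minus the BRD siRNA difference was positive for PLCD1, PLCD3 and PLCE1 and negative for PLCB3, and the other 3 did not pass, where 60.1% of all genes differed, 30.2% upward and 29.9% downward. For PLCE1 the contrast was 0.73 (SE 0.0887, limma adjusted p = 5.08e-07), a fall with BRD siRNA against no called change with JQ1. The size of that contrast depends on the controls, as PLCE1 was 0.49 higher in control siRNA than in DMSO. Against DMSO its BRD siRNA value was -0.12 (limma adjusted p = 0.0699). PLCG1 gave 0.04 with a 95% interval of -0.14 to 0.23 and PLCB4 0.47 with an interval of 0.03 to 0.91 (limma adjusted p = 0.694 and 0.0635). Set against YAP/TAZ siRNA, JQ1 was higher in 4 of 6 members and lower in 2, where 63.3% of all genes differed, 30.9% upward and 32.4% downward. PLCD3 led upward at 1.11 (SE 0.0867, limma adjusted p = 5.96e-10), and PLCB4 led downward at -0.91 (SE 0.212, adjusted p = 0.000834). PLCE1, at 0.21 (limma adjusted p = 0.0461), lost its call in 8 of 10 fits that left out 1 library. Control siRNA and DMSO also differed from each other in 4 of 7 members, 3 higher and 1 lower with control siRNA, where 54.2% of all genes differed, 25.4% higher and 28.7% lower.

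The other phospholipase C genes with rows were PLCB1, PLCD4, PLCH1, PLCH2, PLCL1, PLCL2 and PLCXD2. Of these 7, 5 rose and 0 fell with YAP/TAZ siRNA (median log2 fold change 0.72, against 0.07 over all genes). With BRD siRNA 3 rose and 4 fell (-0.26), and with JQ1 3 rose and 2 fell (0.06). Of all tested genes, 78.9%, 75.2% and 73.9% were called in these comparisons. Against DMSO, 5 rose and 1 fell with YAP/TAZ siRNA (1.27), and likewise with BRD siRNA (0.40). There 84.2% and 78.8% of all genes were called. Control siRNA stood above DMSO for PLCB1, PLCD4, PLCH1, PLCH2 and PLCL2 and below it for PLCXD2 (limma adjusted p under 0.05). In that comparison 54.2% of all genes differed. PLCD4, a delta form, had the largest single fold change of the 14 over the 3 main comparisons, and had it with YAP/TAZ siRNA only. It read 11 and 10.99 with YAP/TAZ mix 1 and 22.4 and 22.6 with mix 2, against 1.01 and 1.38 with control siRNA. Its groups were far apart, with a rise of 2.94 (SE 0.109, limma adjusted p = 9.48e-16). With BRD siRNA it gave -0.27 (limma adjusted p = 0.0327), which rested on mix B (-0.55, adjusted p = 0.000549), as mix A gave 0.0206 (adjusted p = 0.891) and overlapped control siRNA, and against DMSO the BRD value was 0.40 (adjusted p = 0.00245). With JQ1 it gave 0.29 (limma adjusted p = 0.042), and it stood at 1.38 or below in all of these libraries. The calcium-sensitive eta forms PLCH1 and PLCH2 rose by 1.09 (SE 0.102, limma adjusted p = 3.63e-09) and 1.32 (SE 0.135, adjusted p = 1.52e-08) with YAP/TAZ siRNA. PLCH1 gave 0.69 with mix 1 and 1.49 with mix 2. PLCH2 gave 0.57 with mix 1 and 2.07 with mix 2, over 12 and 16 reads with control siRNA. PLCL2, also among the 5 that rose, gave 0.03 with mix 1 (limma adjusted p = 0.689) and 0.90 with mix 2 (adjusted p = 1.71e-10). PLCB1, a beta form, rose by 0.72 with YAP/TAZ siRNA (SE 0.117, limma adjusted p = 1.05e-05). With BRD siRNA PLCH1 fell by 0.91 on the log2 scale (SE 0.102, limma adjusted p = 7.12e-08). Against DMSO its BRD siRNA value was smaller, at -0.37 (limma adjusted p = 0.00268).

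PLCL1 and PLCL2 belong to the family by sequence but lack enzyme activity. PLCL2 read 9.83 and 10.5 with JQ1, against 23.0 and 22.1 in DMSO, a change of -1.07 (SE 0.0694, limma adjusted p = 1.22e-11). PLCL1 read 3.17 and 2.35 with JQ1, against 0.324 and 0.276 in DMSO, a rise of 1.52 (SE 0.142, limma adjusted p = 4.24e-09). The pair thus moved in opposite directions with JQ1, with no overlap in either gene. PLCXD2, which carries only the X domain of the catalytic core, rose by 0.99 with BRD siRNA (SE 0.103, limma adjusted p = 2.29e-08), but it shares 322 exon bases on the same strand with PHLDB2, a row of its own.

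**Figure D5:**
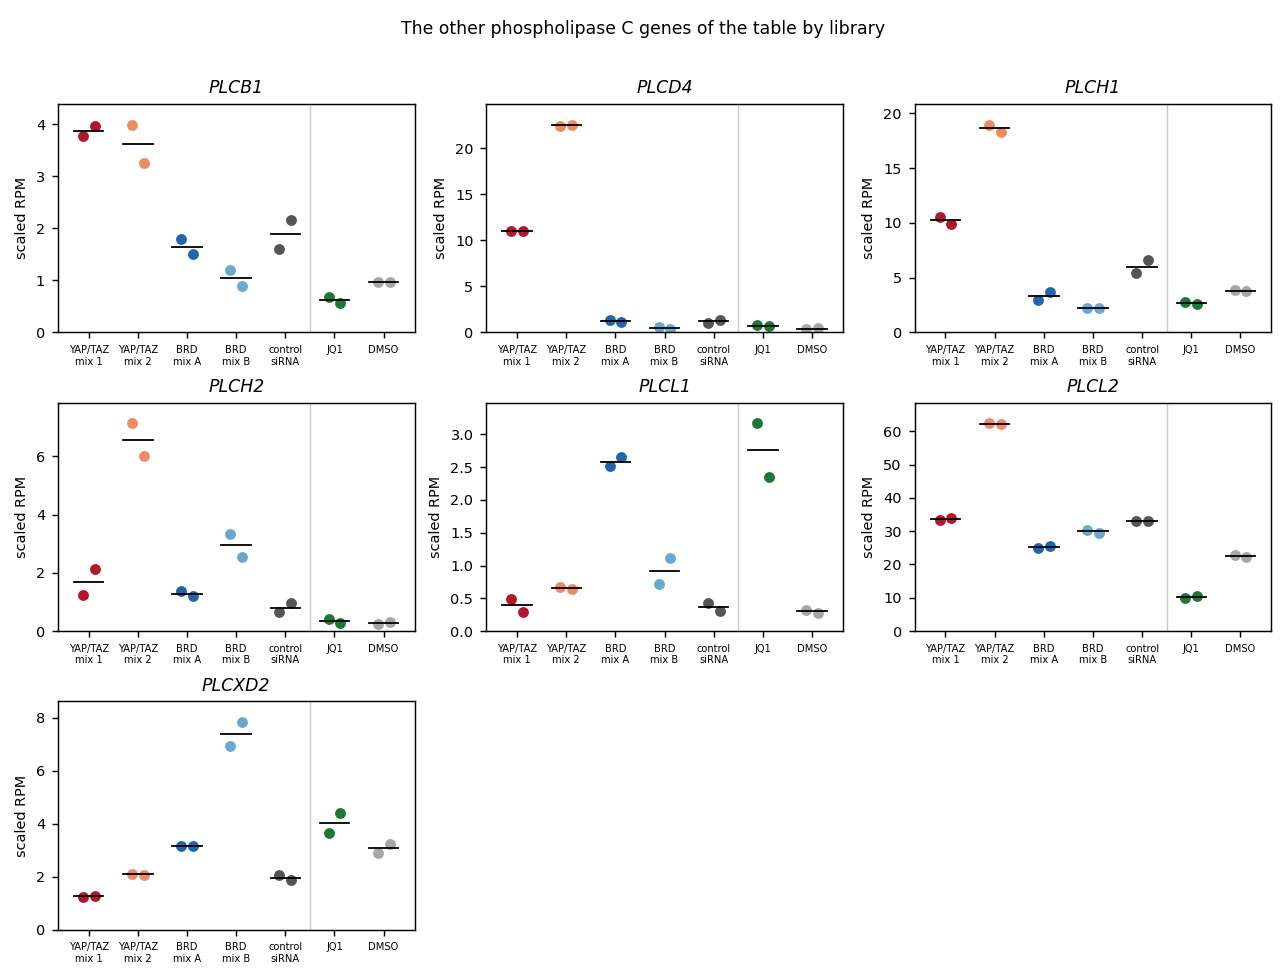
Scaled RPM of the 7 other phospholipase C genes of the table in every library (points) with the group mean (bar), each panel with its own axis from 0. PLCD4 stood at 10.99 to 22.6 with YAP/TAZ siRNA and at 1.38 or below in all other libraries.

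Upstream of the beta forms, the list of Gq proteins, their receptors and regulators had 13 tested genes, of which 6 rose and 6 fell with YAP/TAZ siRNA (median 0.00), 4 rose and 6 fell with BRD siRNA (-0.02) and 2 rose and 10 fell with JQ1 (-0.39). Among all tested genes, 78.9%, 75.2% and 73.9% were called in these comparisons. LPAR1, a lysophosphatidic acid receptor that couples to Gq, fell in all 3, by 1.87, 0.92 and 2.77 on the log2 scale (limma adjusted p = 1.4e-16, 1.78e-11 and 6.11e-18). Its means were 36.3 with YAP/TAZ siRNA and 77.9 with BRD siRNA, against 134.7 with control siRNA, and 25.5 with JQ1, against 180 in DMSO. GNA11, a Gq-class alpha subunit, gave -0.82 with YAP/TAZ siRNA, and RGS4, which speeds GTP hydrolysis by Gq, rose by 1.24 with YAP/TAZ siRNA and by 1.24 with BRD siRNA. LPAR2, a further lysophosphatidic acid receptor, gave -1.81 with BRD siRNA. The protease-activated receptors F2RL1 and F2R gave -0.67 and -0.41 with JQ1. The YAP/TAZ median of this list joined mixes that differed. Mix 1 had 7 of the 13 genes higher and 6 lower (median 0.32), where 74.3% of all genes were called. Mix 2 had 5 higher and 7 lower (-0.28), where 78.4% were called. Against DMSO in place of control siRNA, 5 rose and 8 fell with YAP/TAZ siRNA (-0.71), where 84.2% were called.

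Upstream of the gamma forms, the list of receptor and Src-type tyrosine kinases and adaptors had 12 tested genes, of which 7 rose and 3 fell with YAP/TAZ siRNA (median 0.22), 8 rose and 3 fell with BRD siRNA (0.40) and 8 rose and 2 fell with JQ1 (0.47), beside 78.9%, 75.2% and 73.9% of all genes called. The adaptor GRB2 rose by 0.79 with YAP/TAZ siRNA and by 0.98 with BRD siRNA, and the kinase FYN by 0.87 with YAP/TAZ siRNA and by 1.33 with JQ1. Among receptor genes, PDGFRB rose by 1.84 with YAP/TAZ siRNA, KDR by 2.65 with BRD siRNA, and FGFR1 by 1.04 with JQ1 and 0.76 with BRD siRNA. ERBB2 rose by 0.89 with JQ1. Against DMSO in place of control siRNA, 3 of the 12 rose and 5 fell with YAP/TAZ siRNA (median 0.04), where 84.2% of all genes were called.

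The genes that supply the substrate PIP2 had 15 tested members, with 9 higher and 5 lower after YAP/TAZ siRNA (median 0.20), 8 and 4 after BRD siRNA (0.38) and 9 and 3 after JQ1 (0.53), beside 78.9%, 75.2% and 73.9% of all genes called. The lipid kinase gene PI4K2B gave -1.45 and PIP4K2A 0.94 with YAP/TAZ siRNA, and the phosphatidylinositol transfer protein gene PITPNA rose by 0.76 with YAP/TAZ siRNA and by 1.12 with BRD siRNA. PITPNM1, of the same function, rose by 1.05 with BRD siRNA and by 0.90 with JQ1. CDS2 with BRD siRNA (0.79) and CDS1 with JQ1 (2.27) encode enzymes that remake phosphatidylinositol, and PIP5K1C, which makes PIP2, rose by 1.29 with JQ1.

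On the diacylglycerol side, 17 genes were tested, with 8 higher and 5 lower after YAP/TAZ siRNA (median 0.15), 6 and 6 after BRD siRNA (-0.13) and 4 and 7 after JQ1 (-0.11), beside 78.9%, 75.2% and 73.9% of all genes called. DGKQ, a kinase that removes diacylglycerol, rose by 0.72, 1.84 and 2.501 in the 3 comparisons. DGKD, of the same activity, rose by 0.55 with YAP/TAZ siRNA and gave -1.005 with BRD siRNA. PRKCE, a protein kinase C, gave -0.79 with YAP/TAZ siRNA and -1.72 with JQ1, PRKCA rose by 0.43 with JQ1, and PRKD3 gave -1.28 with BRD siRNA.

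On the IP3 and calcium side, 27 genes were tested, with 14 higher and 8 lower after YAP/TAZ siRNA (median 0.20), 9 and 13 after BRD siRNA (-0.14) and 12 and 10 after JQ1 (0.12), beside 78.9%, 75.2% and 73.9% of all genes called. INPP5A, which inactivates IP3, rose by 0.91 with YAP/TAZ siRNA and by 1.65 with BRD siRNA. With YAP/TAZ siRNA the calcium channel gene ORAI3 rose by 1.71 and RCAN1, a calcineurin regulator, gave -1.98. With BRD siRNA the transcription factor gene NFATC2 gave -1.95, and PPP3CB, a calcineurin subunit, rose by 0.82. With JQ1 the calcium sensor gene STIM2 rose by 1.64, and the IP3 receptor genes ITPR1 and ITPR3 moved in opposite directions, at 1.96 and -1.03. Every fold change named for a gene in these list paragraphs passed at limma adjusted p under 0.05. No list was tested against the other genes.

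The 6 genes whose group means followed PLCG2 most closely (Pearson correlation over 7 group means of log2(value + 1), among genes with a mean of at least 5 in their highest group, a description with no test) were LRRC24 (0.993), IKBKG (0.989), L3MBTL1 (0.989), ZNF862 (0.988), VPS41 (0.986) and FCHSD1 (0.985). LRRC24 met that minimum only in mix 2 (5.87), where PLCG2 was also highest, and its means in the other groups were 0.962 to 3.96, so it entered the comparison through that group alone. Of 11648 genes compared, 310 (2.66%) passed 0.9. FCHSD1 averaged 89.5 with YAP/TAZ mix 1, 119.8 with mix 2, 92.0 with BRD mix A and 86.5 with mix B, against 42.2 with control siRNA, and 73.7 with JQ1, against 33.1 in DMSO. Among the family, PLCD1 came nearest at 0.874, followed by PLCD3 at 0.633 and PLCG1 at 0.507. RPPH1 gave 0.725, RMRP 0.559 and EEF1A1 -0.11.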

How the data were processed

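Per the labels' protocols, stranded total RNA libraries were made after ribosomal RNA removal. Tools named by the submitters' processing notes are CASAVA 1.8.4, TopHat2 2.0.5, HTSeq 0.6.0, edgeR and R 3.0.0, with build hg19; their roles, the annotation and the scaling are not given. The authors deposited a normalized signal per gene, here treated as scaled RPM because the columns sum to 903627 to 1098052. Every value was a whole multiple of 1 read's worth (100% at tolerance 0.01), giving 15741695 to 37311326 reads per library. The scaling factors this implies, 0.911 to 1.107, matched in each library the edgeR trimmed-mean (TMM) factors computed from those reads. After log2(value + 1), 13674 genes reaching 1 in 2 or more libraries, all 7 members among them, entered limma 3.58.1 (R 4.3.3, variance trend, 1 term per group, 14 libraries). Tests were two-sided, with Benjamini-Hochberg adjustment over all tested genes at 0.05. Alternatives were edgeR 4.0.16 and DESeq2 1.42.0 on recovered reads, other pseudocounts (0.25, 4), filters (none, 5) and scalings (median-ratio, quantile), a replicate block, single mixes, DMSO as control, the compared libraries only, and each library left out. The fit was tested on simulated data. For YAP/TAZ siRNA against control siRNA it called 52.2%, 98.3% and 98.6% of genes changed by 0.5, 1 and 2 on the log2 scale. The simulated spread was a fixed setting, not one estimated from these libraries.

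The members, lists and tests were chosen with earlier results of these data known. The 7SK comparison, its measures, the promoter motifs and the rows RMRP, RPPH1 and EEF1A1 were chosen after values had been seen. Other named genes are the members, the targeted genes, 3 YAP/TAZ readouts, the 3 largest moderated statistics per list and main comparison, and the 6 genes closest to PLCG2. Positions and exon lengths are from GENCODE 29 (GRCh38), not the authors' build, and were not carried between builds.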

Additional observations from a re-analysis of the deposited data

Results flagged for a closer look

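The 2 siRNA mixes against YAP and TAZ gave different levels, by a test of the difference itself (limma, mix 1 minus mix 2, log2), for PLCG1 (-1.02, adjusted p = 2.33e-11), PLCB3 (-0.89, adjusted p = 7.34e-11), PLCD1 (-0.74, adjusted p = 7.01e-08), PLCD3 (-1.41, adjusted p = 1.02e-13) and PLCE1 (-0.37, adjusted p = 5.56e-05). All 4 mix 1 and mix 2 libraries of each gene kept to their own side. PLCB3 moved in opposite directions against control siRNA with the mixes.

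The 2 BRD mixes differed likewise (limma, mix A minus mix B, log2) for PLCG1 (-0.20, adjusted p = 0.0162), PLCB3 (0.33, adjusted p = 0.000136), PLCD3 (-0.22, adjusted p = 0.00752) and PLCE1 (0.83, adjusted p = 1.92e-09). Which siRNA sequences each mix holds was not analysed here, and what sets the mixes apart was not tested.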

How the results depend on the processing

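The counts of members called stayed within 1.5 times the reported ones in every alternative, at 4 to 5 for YAP/TAZ siRNA, 5 to 7 for BRD siRNA and 4 to 6 for JQ1. Over all genes, the alternatives called 9472 to 11514, 9217 to 10775 and 9152 to 10379 in the same comparisons. These are large shares of the 13674 genes of the main fit, so steady member counts are not particular to the members. Directions that turned, on the log2 scale, were as follows. With YAP/TAZ siRNA, PLCB3 gave -0.18 with mix 1 alone, PLCB4 gave -0.0705 under quantile normalization, and PLCE1 gave 0.10 with mix 2 alone and 0.41 against DMSO. Under quantile normalization PLCG2 gave 0.0182 between the BRD mixes and -0.0459 between control siRNA and DMSO, and PLCB4 gave -0.20 with mix 1. Under median-ratio scaling and DESeq2, PLCG2 gave -0.0197 and -0.0174 for JQ1 minus BRD siRNA, and PLCD3 gave -0.0371 and -0.0344 with mix 1. Of these, PLCB3 passed both as reported and turned, PLCE1 passed only against DMSO, the others passed in neither, and the cause was not tested. Leaving out 1 library gave ranges across 0 for PLCG2 (-0.0604 to 0.0719) and PLCG1 (-0.0302 to 0.12) in JQ1 minus BRD siRNA, PLCB4 between the BRD mixes (-0.14 to 0.0568), and PLCB4 (-0.22 to 0.36) and PLCD3 (-0.0886 to 0.0935) with mix 1. A group left with 1 library was assumed to vary like the others. PLCG1 with JQ1 passed under median-ratio scaling (adjusted p = 0.028), DESeq2 (0.0297), with only the JQ1 and DMSO libraries (0.0227) and without JQ1 replicate 2 (0.0328), and PLCE1 with JQ1 passed under quantile normalization (0.0361).

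Replicate numbers are not said to pair samples, and deviations of same-numbered libraries correlated at -0.37 to 0.25 over 21 pairs of groups. With the replicate block, 4, 7 and 5 members were called in the main comparisons, as without it, beside 10799, 10276 and 10117 of 13674 genes. PLCB4 passed with the block between the YAP/TAZ mixes (-0.35, limma adjusted p = 0.0444) and in JQ1 minus BRD siRNA (0.47, limma adjusted p = 0.0461). No scaling moved the median of all genes by over 0.1. Depth limits only PLCB4 and the lowest of the other family members.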
